A study of Mus musculus with 6 samples.

Results

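Aldehyde, alcohol and retinol dehydrogenases were examined in 6 bladder tumours of female mice, 3 labelled non-responsive and 3 labelled responsive to an anti-PD-1 antibody. The genes were chosen by their symbols alone: the numbered Aldh genes with a subfamily letter, the numbered Adh genes, and the numbered Rdh and Dhrs genes. This gave 48 of the 22063 genes listed, namely 20 Aldh, 6 Adh, 12 Rdh and 10 Dhrs genes. Aldh2, the mitochondrial acetaldehyde dehydrogenase, carries no subfamily letter and falls outside the choice (142, 126 and 51.8 CPM in non-responsive replicates 1 to 3, against 343, 140 and 139 CPM in the responsive ones, where CPM is a read count scaled to library size).

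Both groups come from a spontaneous bladder cancer model in mice with an intact immune system, and all 6 tumours were treated with the antibody once formed. The labels separate the groups by response alone, and untreated tumours were not analysed here. The strain, the age, what drives the tumours, how response was judged and whether a tumour stands for 1 animal are unknown from the labels and design text. Replicates are separate samples by their labels, and the p-values rest on the spread among them, part of which could be technical.

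These enzymes move hydrogen between alcohols, aldehydes and acids. Alcohol dehydrogenases and many short-chain dehydrogenases (the Rdh and Dhrs genes) interconvert retinol and retinaldehyde. The retinaldehyde dehydrogenases Aldh1a1, Aldh1a2 and Aldh1a3 then make retinoic acid, a ligand of nuclear receptors that helps to keep urothelium, the lining of the bladder, differentiated. Other aldehyde dehydrogenases detoxify aldehydes from lipids and toxins, or work in the breakdown of amino acids and in folate metabolism inside mitochondria.

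Total counts ran from 15046178 to 23917413 per tumour. Levels are CPM scaled with edgeR's TMM factors. The detection limit of 3 counts, the upper bound when 0 are seen, corresponds to 0.124 to 0.199 CPM by counting error alone. All 17 luminal urothelial and all 15 basal and squamous markers passed the expression filter, and none was at 0 in every tumour. Tumours within a group were uneven. Non-responsive replicate 1 correlated most with responsive replicate 2 (Pearson r = 0.95 across genes, which are not independent replicates) and had the highest summed basal and squamous markers, 31080 CPM against 5032 to 13680 CPM elsewhere. Responsive replicate 1 had summed adipocyte markers of 13650 CPM, against 306 to 1364 CPM in the other tumours. Summed luminal markers were at 5648, 1609 and 2283 CPM in the non-responsive tumours and 3155, 7188 and 9353 CPM in responsive replicates 1, 2 and 3, with 15 of the 17 genes below 0 (median log2 fold change, non-responsive minus responsive, -1.86).

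Of the 48 genes, 36 passed the expression filter. None of the 36 passed the edgeR quasi-likelihood test after Benjamini-Hochberg adjustment over all 14505 genes tested (0 higher and 0 lower, as over all genes, where the share called is 0%). At an unadjusted p under 0.05 there were 8 genes lower in non-responsive tumours and 2 higher. Over all genes tested that p was reached by 5.79% in the lower and 6.79% in the higher direction. The lower ones were Adh1, Adh7, Aldh3a1, Aldh3b2, Aldh4a1, Aldh6a1, Dhrs4 and Dhrs7, and the higher ones Aldh1l2 and Dhrs9. The 3 non-responsive values all lay below the 3 responsive ones for 8 genes (8.08% of all genes tested) and all above for 3 (9.58%). The median log2 fold change, non-responsive minus responsive, was -0.27 over the 36 genes and 0.01 over all genes tested, with 24 of the 36 below 0 (49.0% of all genes tested).

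DESeq2, the other count test, gave 5 calls at an adjusted p under 0.05 among the 37 of these genes with an adjusted p, 4 lower and 1 higher. Over all genes with one, 1.48% were called lower and 1.38% higher (2.86% in all). In simulated counts DESeq2 called 90% of the genes changed 4-fold and made 48 false calls among unchanged genes. For edgeR these values were 72.5% and 6. Whether these values hold for the counts of the tumours themselves was not tested. Adh1 (adjusted p = 0.000144), Aldh3b2 (0.000159), Aldh3a1 (0.00029) and Adh7 (0.0374) were called lower in non-responsive tumours by DESeq2. Aldh1l2 was called higher (DESeq2 adjusted p = 0.00623). Adh1, Aldh3a1 and Aldh3b2 were also called by DESeq2 when any 1 tumour was left out. Adh7 was then called only without non-responsive replicate 2 or responsive replicate 1. Aldh1l2 was not called without non-responsive replicate 3 or responsive replicate 3. With 1 tumour left out the number called ran from 3 (without non-responsive replicate 3) to 7 (without non-responsive replicate 1). Of all genes with an adjusted p, 1.04% were called without non-responsive replicate 3 and 13% without non-responsive replicate 1.

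**Figure D1:**
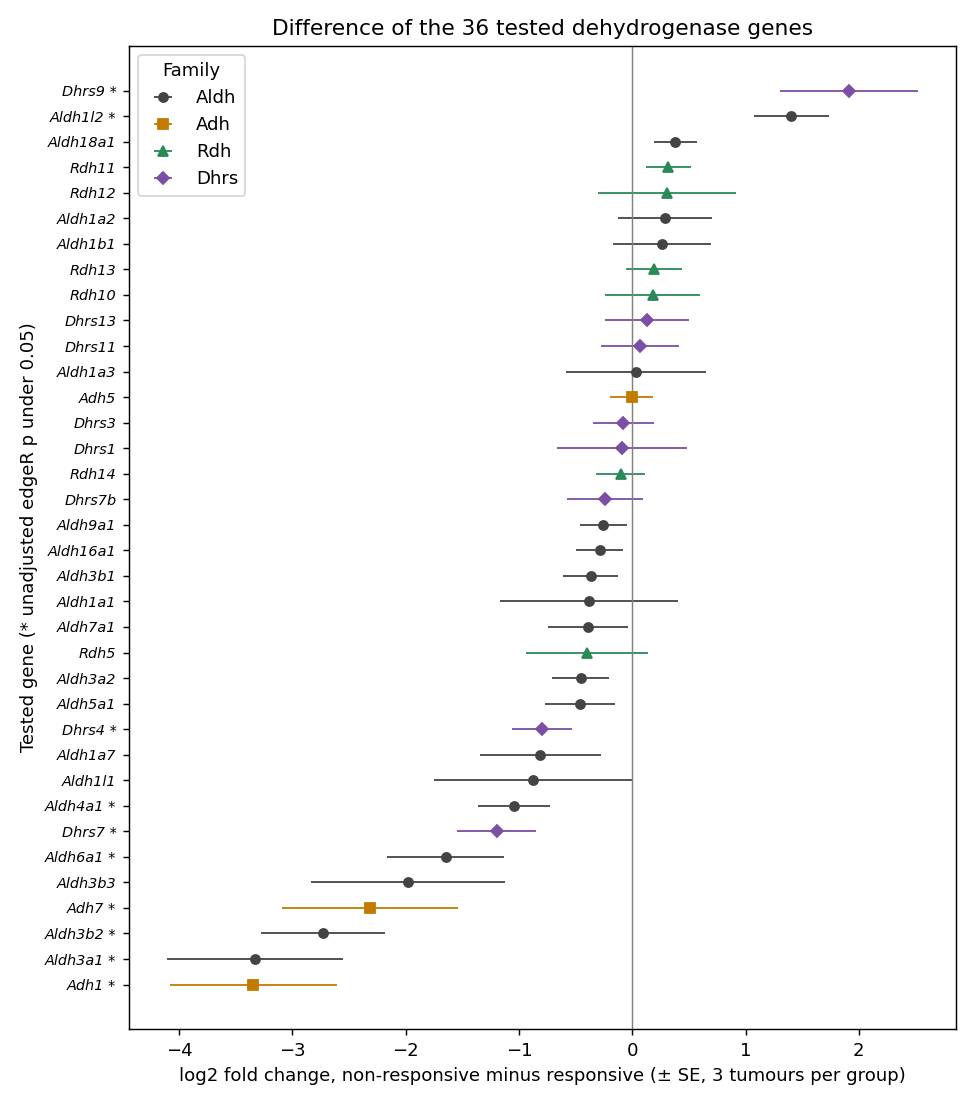
Log2 fold change (x axis, non-responsive minus responsive, edgeR, with its standard error) of the 36 tested genes, 1 per line, with a symbol and colour for each family and an asterisk at an unadjusted p under 0.05. Adh1, Aldh3a1, Aldh3b2 and Adh7 sit farthest to the left, from -3.34 to -2.31, and Dhrs9 farthest to the right at 1.91.

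Per gene length, on the deposited FPKM scale, Aldh3a1 had the highest mean over the 6 tumours at 121 FPKM, followed by Aldh1a1 at 104, Aldh1a3 at 89.7, Adh1 at 87.8 and Dhrs3 at 73.1 FPKM. The order of the group means differed. In responsive tumours the means of Aldh3a1 (219 FPKM) and Adh1 (158.5 FPKM) stood above those of Aldh1a1 and Aldh1a3. In non-responsive tumours their means were 23.4 and 17.2 FPKM, below those of Aldh1a1 (87.5) and Aldh1a3 (88.0). Of the responsive tumours, only replicate 3 had both genes above Aldh1a1 and Aldh1a3. In responsive replicate 1 Aldh3a1 (36.2 FPKM) lay below Aldh1a1 (71.3) and Aldh1a3 (126). In responsive replicate 2 Adh1 (92.0 FPKM) lay below Aldh1a1 (160) and Aldh1a3 (97.4). The FPKM of all 48 genes summed to 988, 623 and 619 in non-responsive replicates 1 to 3 and to 1020, 1305 and 1527 in the responsive ones. On this scale, without TMM factors, every responsive tumour had the larger sum, with non-responsive replicate 1 close to responsive replicate 1. Summed as TMM-scaled CPM, non-responsive replicate 1 stood above responsive replicate 1, so the separation depends on the scale.

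Alcohol dehydrogenases lie in 1 cluster on chromosome 3 (mm10), in the order Adh7, Adh1, Adh6a, Adh6b, Adh4 and Adh5. Of these 6 only Adh1, Adh7 and Adh5 passed the filter. Adh1 (138260991 to 138290698), the class I enzyme that oxidises ethanol and retinol, had 10.2, 47.4 and 13.0 CPM in non-responsive replicates 1 to 3, against 157, 144 and 416 CPM in the responsive ones. Every responsive tumour lay above every non-responsive tumour. The means were 23.5 ± 20.7 and 239 ± 154 CPM (SD, n = 3 per group), and the log2 fold change was -3.34 ± 0.74 (SE; edgeR adjusted p = 0.350), 10.2-fold higher in responsive tumours. Without non-responsive replicate 2 the log2 fold change was -4.34, and without responsive replicate 3 it was -2.69. All 12 adipocyte markers were below 0 too (median log2 fold change -3.72). Their sum was 13650, 1364 and 712 CPM in responsive replicates 1, 2 and 3, and without replicate 1 the difference in Adh1 was -3.58. Adh1 is also abundant in liver. The 10 hepatocyte markers summed to 8.55, 23.5 and 111 CPM in the non-responsive tumours, against 670, 87.0 and 38.7 CPM in the responsive ones, and the 2 that passed the filter were below 0 (median -1.70). Most of that sum was Cyp2e1, at 662, 85.1 and 35.6 CPM in the responsive tumours, while albumin (Alb) was at 4.97, 0.127 and 0.165 CPM there and at 0.066, 0.059 and 16.4 CPM in the non-responsive ones. The part of fat or liver cells in the Adh1 difference was not tested.

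Adh7 (138217760 to 138233382), the class IV enzyme of surface epithelia and an efficient retinol oxidiser, was at 17.3, 44.6 and 32.3 CPM in the non-responsive tumours and 25.9, 191 and 252 CPM in responsive replicates 1, 2 and 3. Responsive replicates 2 and 3 were high, while replicate 1 lay inside the non-responsive range. The log2 fold change was -2.31 ± 0.77 (SE; edgeR adjusted p = 0.364). Its unadjusted edgeR p was 0.0199 with all tumours, 0.0729 with non-responsive replicate 1 left out, 0.0543 with non-responsive replicate 3 left out and 0.0566 with responsive replicate 3 left out.

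Adh5 (138443093 to 138455499), the class III enzyme that clears formaldehyde and S-nitrosoglutathione in most cells, was nearly level, at 90.7, 71.0 and 97.1 CPM in the non-responsive tumours and 85.8, 92.9 and 80.7 CPM in responsive tumours (log2 fold change -0.0033 ± 0.19, SE). Adh4 had a count of 0 in all 6 tumours, and Adh6a and Adh6b had at most 14 and 7 counts.

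The bases before the RefSeq starts (GRCm38.p6) of Adh7 and Adh1, which DESeq2 called lower, of their neighbour Adh5, whose levels overlapped, and of Dhrs9, which had values in the other direction, are shown for comparison, all on the plus strand. Capitals mark matches on either strand to TGANTCA (the AP-1 motif) or AGGTCA (the core element of many nuclear receptors, including those for retinoic acid), motifs chosen after the values were seen.
Adh7, chr3:138217523-138217772: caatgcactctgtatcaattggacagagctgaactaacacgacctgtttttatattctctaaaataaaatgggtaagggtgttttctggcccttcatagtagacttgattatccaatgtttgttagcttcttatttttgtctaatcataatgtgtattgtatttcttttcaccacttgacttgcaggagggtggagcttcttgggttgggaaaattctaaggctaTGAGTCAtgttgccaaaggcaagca
Adh1, chr3:138277335-138277584: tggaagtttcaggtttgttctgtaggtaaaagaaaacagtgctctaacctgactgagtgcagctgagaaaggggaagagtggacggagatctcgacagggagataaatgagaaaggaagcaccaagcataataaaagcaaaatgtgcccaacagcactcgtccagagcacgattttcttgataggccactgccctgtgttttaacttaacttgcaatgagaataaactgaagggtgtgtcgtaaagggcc
Adh5, chr3:138442843-138443092: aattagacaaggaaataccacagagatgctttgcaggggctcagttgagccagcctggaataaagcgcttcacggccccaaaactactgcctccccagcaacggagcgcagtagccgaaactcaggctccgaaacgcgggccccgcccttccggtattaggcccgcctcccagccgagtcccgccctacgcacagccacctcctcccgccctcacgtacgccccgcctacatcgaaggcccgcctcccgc
Dhrs9, chr2:69380212-69380461: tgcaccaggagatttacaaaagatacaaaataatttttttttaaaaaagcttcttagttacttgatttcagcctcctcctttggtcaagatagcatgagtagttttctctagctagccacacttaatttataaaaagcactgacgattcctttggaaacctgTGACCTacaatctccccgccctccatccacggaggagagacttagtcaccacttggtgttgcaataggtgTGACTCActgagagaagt

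The Adh5 window is rich in G and C (63.6%) with 21 CpG dinucleotides, while those of Adh7, Adh1 and Dhrs9 hold 38.0, 44.8 and 40.4% G and C with 1, 5 and 3 CpGs. TGANTCA begins 25 bases before the Adh7 start and 18 bases before the Dhrs9 start, genes whose values lay in opposite directions. It occurs in 6.75% of 32851 such 250-base windows of all genes. AGGTCA begins 88 bases before the Dhrs9 start and occurs in 14.0% of all windows. A further motif, TGACNNNGC (the core of the antioxidant response element, 10.2% of all windows), has no match in these 4 windows. It can share letters with TGANTCA. RefSeq windows were at hand for 38 of the 48 genes, the window of Adh5 is at 1 of its 2 starts, and that of Adh1 lies inside the longer gene span of the GENCODE annotation. The windows of Adh7 and Dhrs9 also run a few bases past the GENCODE starts given here, so that most of the marked TGACTCA of Dhrs9 lies inside the GENCODE gene span.

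Aldehyde dehydrogenases of class 3, which oxidise medium- and long-chain aldehydes from lipid peroxidation, had values of similar size. Aldh3a1 (chromosome 11, 61207537 to 61218421), the abundant aldehyde dehydrogenase of cornea and other stratified epithelia, was at 28.6, 55.0 and 30.6 CPM in the non-responsive tumours and 65.3, 549 and 538 CPM in responsive replicates 1, 2 and 3. The groups did not overlap, with responsive replicate 1 close to non-responsive replicate 2 and the other 2 responsive tumours far above. The log2 fold change was -3.33 ± 0.78 (SE; edgeR adjusted p = 0.350), 10.1-fold higher in responsive tumours.

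Aldh3b2 (chromosome 19, 3972328 to 3981646), a lipid-associated enzyme of the same class, was at 23.8, 23.7 and 21.4 CPM in the non-responsive tumours and 49.6, 153 and 254 CPM in responsive tumours. The non-responsive tumours were nearly equal and the responsive ones widely spread, all above them. The log2 fold change was -2.73 ± 0.55 (SE; edgeR adjusted p = 0.350), and -2.13 without responsive replicate 3. Its coding sequence is 90.6% identical to that of its neighbour Aldh3b3 and 83.6% to that of Aldh3b1, and the authors' counts of the 3 genes, not whole numbers in 5 tumours, add up to whole numbers in all 6 (tolerance 0.01). Reads were therefore shared out among them. With the 3 genes summed, levels were 37.8, 39.6 and 32.9 CPM in the non-responsive tumours and 67.4, 171 and 276 CPM in responsive tumours (log2 fold change -2.22 ± 0.48, SE; edgeR adjusted p = 0.350). Aldh3b1 differed by -0.37 ± 0.24 and the fatty aldehyde dehydrogenase Aldh3a2, next to Aldh3a1, by -0.46 ± 0.25 on the log2 scale. Aldh3b3 was low, at 0.331, 0.235 and 0.973 CPM in the non-responsive tumours, against 0.542, 3.30 and 2.43 CPM in the responsive ones. Responsive replicates 2 and 3 were high and replicate 1 lay inside the non-responsive range (log2 fold change -1.98 ± 0.86, SE; edgeR adjusted p = 0.398).

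Responsive replicates 2 and 3, where Aldh3a1, Aldh3b2 and Adh7 were highest, also had the most luminal markers (7188 and 9353 CPM). Of the 17 luminal markers 15 were below 0, 9 of them at an unadjusted p under 0.05. Over all genes tested, 49.0% were below 0 and 5.79% were lower at that p. In non-responsive replicate 1, which had the lowest Aldh3a1 and Adh7 of the 6 tumours, the luminal sum of 5648 CPM was carried mostly by the keratins Krt7 (2402 CPM), Krt19 (1141 CPM) and Krt20 (548.5 CPM). The uroplakins, which define umbrella cells, were uneven there, with Upk1a at 3.71, Upk2 at 10.3 and Upk3a at 3.38 CPM but Upk1b at 102 and Upk3b at 175 CPM. In responsive replicate 3 Upk1a, Upk2 and Upk3a were at 372, 199 and 158 CPM, the highest of the 6 tumours. Involucrin (Ivl), a marker of squamous differentiation, was at 184, 107 and 189 CPM in the non-responsive tumours and 191, 574 and 683 CPM in responsive tumours. Ivl was among the 4 of 15 basal and squamous markers below 0, while 11 were above 0 (median log2 fold change of the list 0.51). The part of urothelial content in these differences was not tested. In bulk tissue, fewer cells of a type and less RNA per cell cannot be told apart.

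**Figure D2:**
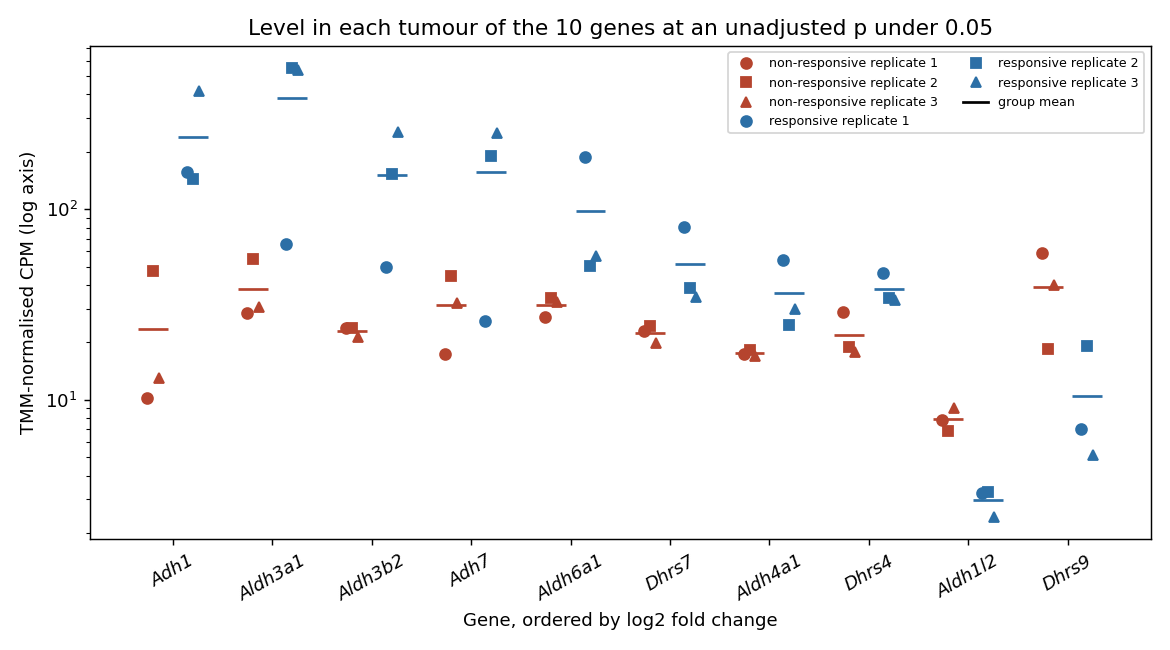
TMM-normalised CPM (y axis, log scale) in each tumour of the 10 genes at an unadjusted edgeR p under 0.05, with non-responsive tumours in red, responsive tumours in blue, a symbol shape per replicate and a bar at each group mean. Responsive replicates 2 and 3 stand highest for Aldh3a1, Aldh3b2 and Adh7, and responsive replicate 1 for Aldh6a1, Dhrs7, Aldh4a1 and Dhrs4.

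Retinaldehyde dehydrogenases were among the most abundant of the 48 genes and did not separate the groups. On the deposited FPKM scale, which accounts for gene length, Aldh1a1 was at 191, 39.6 and 32.2 in non-responsive and 71.3, 160 and 132 in responsive replicates 1, 2 and 3. Aldh1a3 was at 160, 65.1 and 38.9 FPKM against 126, 97.4 and 51.2 FPKM, and Aldh1a2, the enzyme of mesenchymal tissues in the embryo, at 47.1, 24.0 and 28.5 FPKM against 16.3, 33.5 and 30.8 FPKM. Non-responsive replicate 1 held the highest level of all 3 genes, whose FPKM summed to 398 there and to 129 and 99.7 in the other non-responsive tumours, against 214, 291 and 214 in the responsive ones. Aldh1a1 exceeded Aldh1a3 in non-responsive replicate 1 and in responsive replicates 2 and 3, and Aldh1a3 exceeded Aldh1a1 in the other 3 tumours.

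Aldh1a1 (chromosome 19, 20492715 to 20643465) was at 445, 70.9 and 61.1 CPM in the non-responsive tumours and 145, 343 and 264 CPM in responsive tumours, a log2 fold change of -0.38 ± 0.78 (SE). Without non-responsive replicate 1 it was -1.93, while without non-responsive replicate 2 or 3 it was 0.03 or 0.05. Aldh1a3 differed by 0.03 ± 0.62 and by -0.93 without non-responsive replicate 1, and Aldh1a2 by 0.29 ± 0.42 and by -0.22 without that tumour. The sign of each of the 3 genes thus changed when single tumours were left out. Non-responsive replicate 1 was also the tumour with the most basal and squamous markers, whose part in these values was not tested.

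Aldh1a7, a rodent copy of Aldh1a1 with 91.6% identity over the coding sequence, was at 101, 22.3 and 33.2 CPM in the non-responsive tumours and 104, 81.5 and 90.2 CPM in responsive tumours (log2 fold change -0.81 ± 0.53, SE). Non-responsive replicates 2 and 3 were low, and replicate 1 lay inside the responsive range. The counts of Aldh1a1 and Aldh1a7 add up to whole numbers in all 6 tumours although they were not whole in 2, so reads were shared between this pair too. Summed, the pair differed by -0.49 ± 0.71 (edgeR adjusted p = 0.763). Without non-responsive replicate 1 Aldh1a7 alone differed by -1.73. In that setting DESeq2 called both Aldh1a1 and Aldh1a7 lower, and it called 13% of all genes with an adjusted p.

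**Figure D3:**
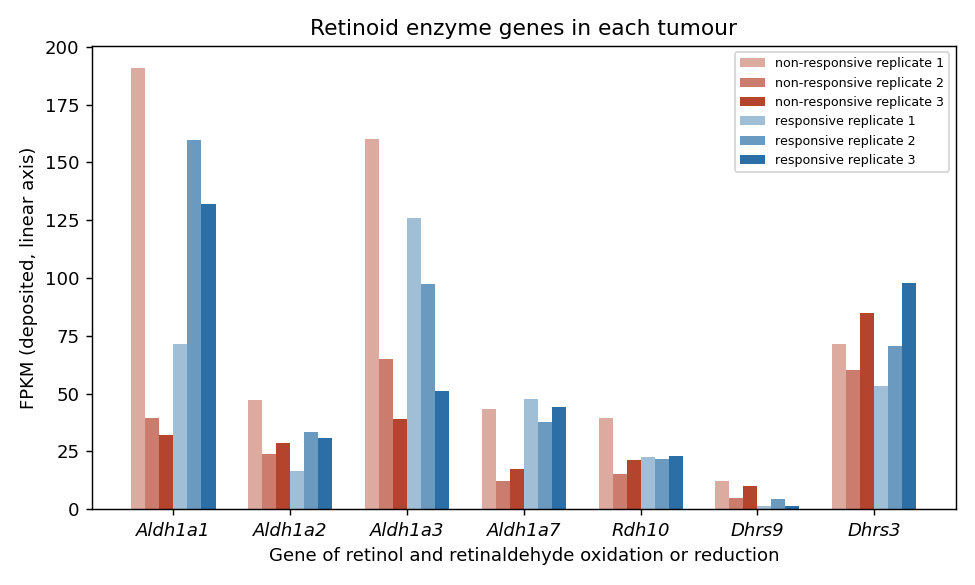
Deposited FPKM (y axis, linear) of 7 genes of retinol and retinaldehyde metabolism, with 1 bar per tumour, non-responsive in shades of red and responsive in shades of blue. Aldh1a1 and Aldh1a3 are highest in non-responsive replicate 1, at 191 and 160 FPKM, and the groups overlap for Dhrs3.

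Enzymes that convert between retinol and retinaldehyde included 1 of the 2 genes higher in non-responsive tumours at an unadjusted p under 0.05. Dhrs9 (chromosome 2, 69380445 to 69404533), a retinol dehydrogenase also known from epithelium and macrophages, was at 59.2, 18.5 and 40.2 CPM in the non-responsive tumours and 7.05, 19.2 and 5.15 CPM in responsive replicates 1, 2 and 3. The groups overlapped by 1 tumour, with non-responsive replicate 2 just below responsive replicate 2. The log2 fold change was 1.91 ± 0.61 (SE; edgeR adjusted p = 0.364; DESeq2 adjusted p = 0.0508) and ran from 1.49 (without non-responsive replicate 1) to 2.69 (without responsive replicate 2) with 1 tumour left out. The unadjusted edgeR p, 0.0161 with all tumours, was 0.0643 when non-responsive replicate 1 was omitted and 0.0509 when responsive replicate 1 was omitted. Of 12 macrophage markers 11 were above 0 as well (median log2 fold change 0.35), 3 of them at an unadjusted p under 0.05. Over all 14505 genes tested, 7396 were above 0 and 6.79% were higher at that p. Their sum was 1063, 1604 and 1365 CPM in the non-responsive tumours, against 1456, 1099 and 624 CPM in the responsive ones, and its part in the Dhrs9 difference was not tested.

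Rdh10, the membrane enzyme that makes most retinaldehyde in the embryo, was at 161, 48.3 and 70.8 CPM in the non-responsive tumours and 84.6, 81.8 and 80.9 CPM in responsive tumours. Its responsive values were close together and its non-responsive ones lay on both sides of them (log2 fold change 0.18 ± 0.42, SE, and -0.47 without non-responsive replicate 1). Dhrs3, a retinaldehyde reductase that retinoic acid induces, was at 121, 84.1 and 127 CPM against 87.0, 115 and 148 CPM (-0.08 ± 0.27).

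Rdh11, a microsomal retinaldehyde reductase, was at 28.3, 25.8 and 33.3 CPM in the non-responsive tumours and 25.7, 21.5 and 23.0 CPM in responsive tumours. The groups were separate by a narrow margin, and the log2 fold change was 0.32 ± 0.20 (edgeR adjusted p = 0.493). The other 4 Rdh genes tested, Rdh5, Rdh12, Rdh13 and Rdh14, differed by -0.40 to 0.31. Rdh12, a photoreceptor enzyme also found in skin, was at 6.74 CPM in non-responsive replicate 2 and at 14.2 to 38.4 CPM elsewhere. Counts of Rdh5 were not whole in any tumour, and the annotation has Bloc1s1 overlapping it on the same strand.

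Dhrs4, a peroxisomal reductase of retinal and other carbonyls, was at 29.0, 18.8 and 17.8 CPM in the non-responsive tumours and 46.5, 34.3 and 33.4 CPM in responsive tumours. The groups did not overlap, and the log2 fold change was -0.80 ± 0.27 (SE; edgeR adjusted p = 0.364). The unadjusted edgeR p of Dhrs4, 0.0192 with all tumours, was 0.0655, 0.0716 and 0.0679 when non-responsive replicate 2, non-responsive replicate 3 and responsive replicate 1 were omitted in turn. Dhrs7, a membrane enzyme that reduces steroids and retinal, was at 23.1, 24.5 and 20.0 CPM in the non-responsive tumours and 80.9, 38.8 and 34.8 CPM in responsive tumours (-1.20 ± 0.35; edgeR adjusted p = 0.350). Without responsive replicate 1 Dhrs7 differed by -0.71. Dhrs1 was at 193, 48.9 and 63.6 CPM against 160, 105 and 62.1 CPM and differed by -0.09 ± 0.57. Dhrs7b, Dhrs11 and Dhrs13 differed by -0.24 to 0.13.

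Enzymes of amino acid and folate metabolism had values in both directions, and none passed the edgeR test. Aldh6a1 (chromosome 12, 84430717 to 84451004), which acts in valine breakdown, was at 27.3, 34.1 and 32.6 CPM in the non-responsive tumours and 188, 50.1 and 56.6 CPM in responsive replicates 1, 2 and 3. All 3 responsive tumours were higher, replicate 1 by far. The log2 fold change was -1.65 ± 0.52 (SE; edgeR adjusted p = 0.364), and -0.77 without responsive replicate 1. The unadjusted edgeR p of Aldh6a1 was 0.0151, and 0.0555 when non-responsive replicate 1 was omitted. Bbof1, which overlaps it on the opposite strand, was at 1.31 CPM in the non-responsive and 0.954 CPM in the responsive tumours on average. Aldh4a1 (chromosome 4, 139622866 to 139649690), which completes proline breakdown, was at 17.5, 18.4 and 17.0 CPM in the non-responsive tumours and 54.3, 24.7 and 29.8 CPM in responsive tumours. The groups did not overlap (-1.04 ± 0.32; edgeR adjusted p = 0.360), and the difference was -0.63 without responsive replicate 1.

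Aldh18a1, which starts proline synthesis, was at 57.8, 42.2 and 45.4 CPM in the non-responsive tumours and 36.7, 37.8 and 37.1 CPM in responsive tumours. Its groups did not overlap either, with a log2 fold change of 0.38 ± 0.19 (SE; edgeR adjusted p = 0.428). Aldh5a1, of the breakdown of the neurotransmitter GABA, was at 13.6, 7.33 and 14.3 CPM against 15.6, 14.8 and 18.0 CPM (-0.46 ± 0.31). Aldh7a1, Aldh9a1, Aldh16a1 and Aldh1b1 differed by -0.39 to 0.27.

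Responsive replicate 1 held the highest Aldh6a1, Aldh4a1, Dhrs7, Dhrs4 and Aldh1l1 of all tumours and also adipocyte markers of 13650 CPM, with adiponectin (Adipoq) at 789 CPM against 3.51 to 74.1 CPM in the other 5. Aldh1l1, the cytosolic folate enzyme, was at 79.0 CPM there against 6.26 to 31.1 CPM elsewhere (log2 fold change -0.88 ± 0.88, SE, and 0.69 without responsive replicate 1). With all tumours Aldh6a1, Aldh4a1, Dhrs7 and Dhrs4 had values of -1.65, -1.04, -1.20 and -0.80, and without that tumour -0.77, -0.63, -0.71 and -0.63. The part of fat tissue in the difference with all tumours was not tested.

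Aldh1l2 (chromosome 10, 83487450 to 83534140), the mitochondrial counterpart of Aldh1l1, was at 7.82, 6.86 and 9.08 CPM in the non-responsive tumours and 3.25, 3.30 and 2.43 CPM in responsive tumours. The groups lay well apart, with a log2 fold change of 1.40 ± 0.33 (SE; edgeR adjusted p = 0.350), 2.64-fold higher in non-responsive tumours. The log2 fold change lay between 1.27 and 1.51 with any 1 tumour left out. Its counts were not whole in any tumour. The gene Nopchap1 overlaps it on the opposite strand at 242 CPM in the non-responsive tumours and 144 CPM in responsive tumours (0.74 ± 0.29), and since the strand setting of the counting is not given, reads of the 2 genes cannot be told apart with certainty. The counts of the 2 genes add up to a whole number in only 1 of 6 tumours (tolerance 0.01), so sharing between them alone does not account for the decimals.

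**Figure D4:**
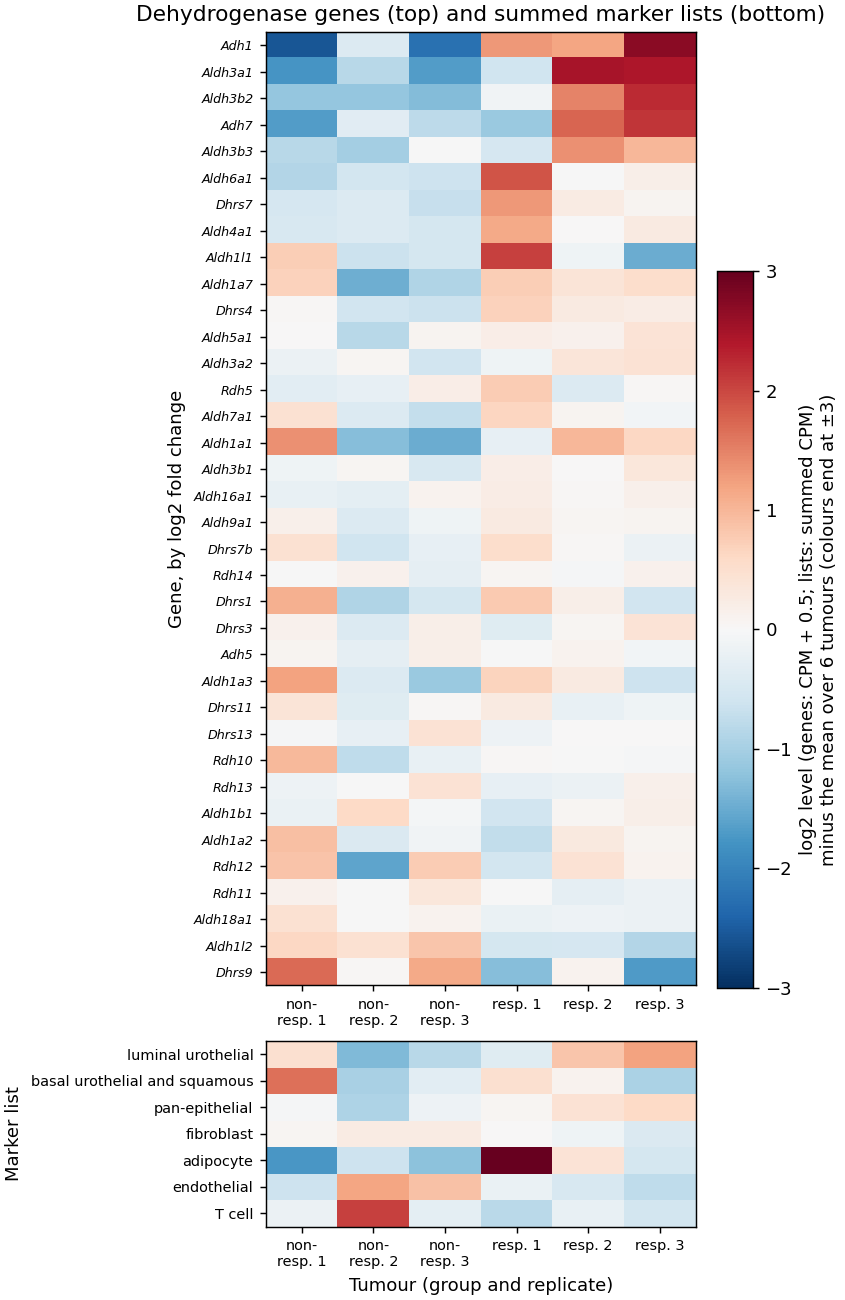
Level of the 36 tested genes (upper panel, log2 of CPM + 0.5) and of 7 summed marker lists (lower panel, log2 of summed CPM) in each tumour (columns), each row shown as the difference from its mean over the 6 tumours, with red above and blue below. Adh1, Aldh3a1, Aldh3b2 and Adh7 are reddest in responsive replicate 3 or 2, Aldh6a1 and Aldh1l1 in responsive replicate 1 beside its adipocyte markers, and Aldh1a1, Aldh1a3 and Rdh10 in non-responsive replicate 1.

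The 12 genes below the filter were Adh4, Adh6a, Adh6b, Aldh8a1, Dhrs2, Dhrs7c, Rdh1, Rdh7, Rdh8, Rdh9, Rdh16 and Rdh19. None exceeded 14 counts in any tumour. Most are enzymes of liver, muscle or eye, and 5 of them (Rdh1, Rdh7, Rdh9, Rdh16 and Rdh19) lie together on chromosome 10. By family, 14 of 19 tested Aldh genes, 3 of 3 Adh, 5 of 8 Dhrs and 2 of 6 Rdh genes were below 0, with medians of -0.39, -2.31, -0.09 and 0.19. Over all genes tested 49.0% were below 0.

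Other genes of the retinoid pathway, from lists chosen with earlier results of these data known, gave 0 calls by edgeR as well. In retinoid transport and storage 13 genes were tested, with a median log2 fold change of -0.40. At an unadjusted p under 0.05 there were 3, all lower (5.79% of all genes tested). These were Rbp4, the retinol carrier of blood (-3.99 ± 1.38), Ces1d (-4.25 ± 1.31) and Lipe (-2.29 ± 0.82), both lipid hydrolases. All 3 were highest in responsive replicate 1, with Rbp4 at 180 CPM there against 1.19 to 15.7 CPM elsewhere. That tumour had the highest sums of both adipocyte markers (13650 CPM) and hepatocyte markers (670 CPM). Lipe is itself 1 of the 12 adipocyte markers. The part of fat or liver cells in these differences was not tested. Stra6, the membrane receptor that takes up retinol, was at 19.4, 27.9 and 107 CPM in the non-responsive tumours and 35.9, 24.4 and 13.8 CPM in responsive tumours (1.06 ± 0.67).

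Of 4 tested genes of retinoic acid binding and breakdown 3 were above 0 (median 0.89). Cyp26a1, which degrades retinoic acid and is induced by it, was at 1.66, 2.05 and 0.60 CPM in the non-responsive tumours and 0.45, 0.38 and 0.16 CPM in responsive tumours (2.10 ± 0.70; edgeR unadjusted p = 0.0201). The groups did not overlap, and responsive replicate 3 was close to its detection limit of 0.124 CPM. Cyp26b1, with the same activity, differed by 0.66 ± 0.58. Of the receptors, Rarg, the main retinoic acid receptor of epithelium, differed by -0.47 ± 0.25, Rarb by -0.67 ± 0.50, Rara by 0.33 ± 0.26 and Rxra by -0.39 ± 0.39. None of the 6 receptor genes tested reached an unadjusted p under 0.05.

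Among 15 tested genes that retinoic acid is known to induce, the median was -0.08, with Cyp26a1 higher and Rarres2 lower at an unadjusted p under 0.05. Over all genes tested, 6.79% were higher and 5.79% lower at that p. Rarres2, which encodes the chemoattractant chemerin, was at 30.4, 29.0 and 13.4 CPM in the non-responsive tumours and 102, 47.8 and 94.3 CPM in responsive tumours (-1.75 ± 0.41; edgeR adjusted p = 0.350; DESeq2 adjusted p = 0.00909). Every responsive tumour was higher. Of the 15 genes 6 were above 0 and 9 below.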

How the data were processed

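RNA of 6 tumours was sequenced from TruSeq libraries, per the labels' protocols. The authors deposited 1 table of estimated counts and FPKM per gene, with mm10 as the build per the submitters' processing notes; aligner, counter and strand setting are unknown from labels and headers. Between 8.19 and 9.99% of the deposited count values per tumour were not whole, and they were rounded. FPKM values served to compare levels between genes, for sums per tumour and in limma on log2(FPKM + 1), not in the main test.

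Non-responsive was compared with responsive (3 against 3) in edgeR 4.0.16 (TMM, filterByExpr, robust quasi-likelihood test) under R 4.3.3, with Benjamini-Hochberg adjustment over 14505 genes and a threshold of 0.05; the procedure was tested on simulated data. Alternatives were DESeq2 1.42.0, limma 3.58.1, other scalings and filters, a replicate block and leaving out each tumour. DESeq2 without each tumour and the summing of gene copies were added after seeing the data. The genes and lists were chosen with earlier results of these data known. Genes always given in full were those at an unadjusted p under 0.05, the 10 of highest mean FPKM and a set of core retinoid enzymes. Aldh3b3, Aldh18a1 and Aldh5a1 were given in every tumour as well. Positions come from GENCODE M21, promoters from RefSeq.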

Additional observations from a re-analysis of the deposited data

How the results depend on the processing

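Under edgeR with other scalings or filters, a replicate block, limma-voom or limma on log2(FPKM + 1), and with any 1 tumour left out, 0 of the genes examined passed the adjusted threshold. DESeq2 called 440 genes (2.86% of those with an adjusted p), 5 of them among those examined. Without non-responsive replicate 1, 2 or 3 it called 1964, 416 and 166 genes (13, 2.71 and 1.04%), with 7, 6 and 3 of those examined. Without responsive replicate 1, 2 or 3 it called 439, 293 and 193 genes (2.94, 1.91 and 1.29%), with 5, 6 and 4 of those examined. The number at an unadjusted edgeR p under 0.05 ran from 1 to 4 higher and 7 to 9 lower when 1 tumour was left out. The number whose groups did not overlap ran from 11 to 17, with 17 without non-responsive replicate 1. With all tumours it was 11 (17.7% of all genes tested). The edgeR shares of all genes with 1 tumour left out are not given here, and groups of 2 and 3 separate more easily for any gene. Those counts are therefore not a result about the genes examined. The median log2 fold change ran from -0.47, without non-responsive replicate 1, to -0.12, and that of the retinoid lists from -0.42 to -0.23. Deviations from the group mean correlated at -0.11, -0.0867 and -0.0237 in same-numbered tumours, against -0.119 to 0.192 in tumours of different numbers. With 3 tumours per group these values cannot exclude a pairing, since deviations within a group sum to 0. With the replicate block 2 genes were higher and 9 lower at an unadjusted edgeR p under 0.05, with a median of -0.28. Sign changes were counted only for the 19 tested genes chosen by p, FPKM or as core retinoid enzymes. Of their 266 values 20 changed sign, all in Aldh1a1, Aldh1a2, Aldh1a3, Rdh10, Adh5, Dhrs1 and Dhrs3. Genes outside that count changed sign too, such as Aldh1l1 (0.69 without responsive replicate 1) and Rdh12 (-0.03 without non-responsive replicate 1). The cause was not tested. Depth limits the 12 genes below the filter.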

Other observations

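Aldehyde and ketone reductases and related dehydrogenases outside the symbol choice, Aldh2 and Sord among them, were mostly below 0 as well. Of 27 tested, 24 were below 0 (median log2 fold change -0.61, against 0.01 over all genes), and 8 were lower in non-responsive tumours at an unadjusted edgeR p under 0.05 (5.79% of all genes tested), while 0 passed adjustment. Akr1b3, the aldose reductase, was at 542, 416 and 380 CPM in non-responsive and 399, 1459 and 2796 CPM in responsive replicates 1, 2 and 3, and Akr1b8, a related reductase, at 193, 190 and 159 CPM against 123, 737 and 873 CPM. Both were chosen after their values were seen. As with Aldh3a1, responsive replicates 2 and 3 were high and responsive replicate 1 was not.

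Genes of the oxidative stress response gave 9 of 10 below 0 (49.0% of all genes tested), with a median of -0.60. At an unadjusted edgeR p under 0.05, 3 were lower (5.79% of all genes tested), namely Txnrd1, Nqo1 and Me1. Txnrd1 was at 178, 139 and 119 CPM in non-responsive and 222, 317 and 228 CPM in responsive replicates 1, 2 and 3, without overlap. Nqo1, a quinone reductase, was at 21.2, 34.5 and 14.9 CPM in non-responsive and 19.5, 144 and 143 CPM in responsive replicates 1, 2 and 3. Me1, malic enzyme, was at 129, 127 and 44.8 CPM against 1008, 328 and 296 CPM, highest in the tumour with the most adipocyte markers. Both lists were chosen with earlier results of these data known.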
